A study of Mus musculus with 12 samples.

Results

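The genes described here are 7 members of the type 2 immune axis, taken by name from 40760 gene rows in 12 RNA-seq libraries of Pdgfra+ (Cd140a+) mouse lung cells. They are the alarmin Il33, the receptor genes Il1rl1, Il4ra, Il13ra1 and Il13ra2, and the alternative activation genes Chil3 and Retnla. They were chosen by their place in the pathway, with their fold changes and adjusted p in these data already known, so that their tests are no independent support for the choice.

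The libraries fall into 4 groups of 3, made from male mice. WT mice and Pear1-/- mice were each given vehicle or bleo. Bleo (bleomycin) injures the lung and is followed by fibrosis, and it was delivered into the airways as an aerosol. The dose and the day of sampling of these libraries are not given in the sources used here. Mice were on a C57BL/6 background and 8 to 12 weeks old wherever the methods state nothing else. The Pear1-/- mice carry a knockout-first allele in the whole body, in which a cassette in an intron is meant to trap and truncate the transcript. Pear1 had between 501 and 547 normalised counts in the libraries labelled Pear1-/- vehicle and between 519 and 576 in those labelled WT vehicle. It had between 344 and 372 in those labelled Pear1-/- bleo and between 239 and 266 in those labelled WT bleo, where it was called higher in Pear1-/- (log2 fold change 0.48, SE 0.081, adjusted p = 7.54e-05 by edgeR's quasi-likelihood test). Counts over the whole gene were thus not lower under the Pear1-/- label and do not bear it out, and counts per exon were not used here. WT and Pear1-/- below name the libraries by their labels. The number of mice behind a library is not stated, and p-values therefore measure the spread between these libraries, which may be technical.

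IL-33 is stored in the nucleus of structural cells of the lung and is released when they are damaged. It binds the receptor ST2, encoded by Il1rl1, on innate lymphoid cells, mast cells and T helper cells, which then make IL-4, IL-5 and IL-13. IL-4 and IL-13 signal through IL-4 receptor alpha paired with IL-13 receptor alpha 1, chiefly by way of STAT6, while IL-13 receptor alpha 2 binds IL-13 and acts largely as a decoy. In macrophages this signal turns on Chil3 and Retnla, classic mouse marks of alternative activation, and in fibroblasts it promotes matrix production.

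The total count per library was between 6702948 and 10447101. A count of 3 or fewer in a library was taken as not detected, a floor that covers counting error only. Values are the deposited normalised counts, which are read counts divided by a size factor per library. A gene was called changed where its adjusted p was under 0.05 in edgeR's quasi-likelihood test, two-sided, with Benjamini-Hochberg adjustment over the 17418 genes that passed the filter on low counts. Of the 7 genes, 6 passed that filter and Il13ra2 did not. Log2 fold changes are given with their standard errors (SE), and group values as mean ± SD with n = 3.

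Before the results, 1 library has to be named. The library labelled WT vehicle replicate 2 stood apart from the other 2 of its group. A chi-square of its counts over its degrees of freedom, a ratio near 1 if libraries differ by counting noise only, was 21.2 and 21.8 against WT vehicle replicates 1 and 3, but between 1.73 and 2.67 against the 3 Pear1-/- vehicle libraries. Among the other pairs within a group it lay between 1.35 and 4.82. On the log2 CPM scale with TMM normalization all 6 tested genes of the axis were nearer in this library to the mean of Pear1-/- vehicle than to the mean of WT vehicle replicates 1 and 3, as were 77.2% of all tested genes. On CPM without TMM 5 of the 6 were, Il13ra1 being the exception. The labels were kept, and the tests of the 6 genes against WT vehicle are also given without that library.

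Pdgfra, the gene of the sorting antigen, was present in all 12 libraries, with between 4125 and 4802 normalised counts in the vehicle libraries, between 1338 and 1394 in WT bleo and between 2370 and 2403 in Pear1-/- bleo. Ptprc, which encodes the leukocyte antigen CD45, was present too, with 3010 to 4016 in the vehicle libraries, 7542 to 7727 in WT bleo and 3241 to 3448 in Pear1-/- bleo. The summed CPM (counts scaled to a common library total) of 12 leukocyte and macrophage markers was between 2745 and 2893 in the vehicle libraries, between 19572 and 19663 in WT bleo and between 7876 and 8064 in Pear1-/- bleo. None of the 12 was at or under 3 counts in every library. Transcripts of leukocytes were thus measured beside those of Pdgfra+ cells. In bulk RNA fewer cells of a type and less RNA per cell cannot be told apart.

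The promoters of 3 of the genes are shown because the letters of a STAT element occur in them, the kind of element that STAT6 binds downstream of IL-4 and IL-13. Sequences are from RefSeq (GRCm38.p6), read 5′ to 3′ on the strand of the gene, with bases inside an annotated exon left out. Capitals mark the letters TTC and GAA with either 4 bases of any kind between them, the spacing preferred by STAT6, or 3 bases, the spacing of other STAT proteins. Both motifs read the same on either strand, and each promoter shown holds 1 of them.
Retnla, chr16:48842359-48842550, plus strand: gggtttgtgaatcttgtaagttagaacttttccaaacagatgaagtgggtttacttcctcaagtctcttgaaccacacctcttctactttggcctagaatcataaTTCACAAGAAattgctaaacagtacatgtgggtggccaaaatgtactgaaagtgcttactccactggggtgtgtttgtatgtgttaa
Chil3, chr3:106167565-106167814, minus strand: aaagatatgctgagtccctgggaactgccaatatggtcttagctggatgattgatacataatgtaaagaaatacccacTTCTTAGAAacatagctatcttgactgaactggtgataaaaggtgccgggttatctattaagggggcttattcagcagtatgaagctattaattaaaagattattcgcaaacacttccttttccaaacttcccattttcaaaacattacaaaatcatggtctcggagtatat
Il33, chr19:29924863-29925112, plus strand: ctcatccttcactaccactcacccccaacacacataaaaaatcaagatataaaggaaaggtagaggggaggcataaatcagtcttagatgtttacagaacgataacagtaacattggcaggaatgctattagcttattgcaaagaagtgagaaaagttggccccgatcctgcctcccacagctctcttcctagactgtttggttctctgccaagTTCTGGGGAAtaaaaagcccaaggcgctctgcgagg
Promoters of all 7 genes, with 9 starts, were searched over the 250 bases before the RefSeq start, exon bases that are not printed included. The motif with 4 bases between was found at 2 of the 9 starts. It begins 36 bases before the RefSeq start of Il33, and 145 bases before the RefSeq start of Retnla, which is 87 bases before the GENCODE start at which the printed stretch ends. It occurs in 5.85% of all 32851 promoters searched. The motif with 3 bases between was found at 1 start, 172 bases before the start of Chil3, and occurs in 7.02% of all promoters. These matches describe letters in a window and show no binding.

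Il33 (ENSMUSG00000024810) lies on chr19:29925114-29960718, plus strand, of GRCm38, with an exonic length of 2886 bases in GENCODE M21. It had 526, 1012 and 500 normalised counts in WT vehicle replicates 1, 2 and 3, and 1046, 1103 and 948 in Pear1-/- vehicle. It had 287, 253 and 281 in WT bleo and 371, 369 and 389 in Pear1-/- bleo. Every bleo library lay below every vehicle library, and every Pear1-/- bleo library lay above every WT bleo library. Il33 fell with bleo in WT (log2 fold change -1.30, SE 0.24, adjusted p = 0.000968 by edgeR) and in Pear1-/- (-1.45, SE 0.23, adjusted p = 0.00045). The fall in WT was smaller without WT vehicle replicate 2, with a log2 fold change of -0.83 (SE 0.086, adjusted p = 1.23e-12). Pear1-/- bleo and WT bleo were not called different in the fit of all 12 libraries (0.45, SE 0.25, adjusted p = 0.171). When only the 2 bleo groups were fitted, so that WT vehicle replicate 2 no longer entered the estimate of spread, the same difference passed the threshold (0.45, SE 0.072, adjusted p = 4.56e-08). It also passed when that library alone was left out of the fit (0.43, SE 0.078, adjusted p = 4.09e-06), so the call on Il33 between the bleo groups rests on 1 library of neither group.

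Other type 2 ligands were scarce. Il13 had at most 2 counts and Il9 at most 2 in any library, so neither was detected. Il5 had at most 4 counts and Il25 at most 5, and both failed the filter. Il4 had 28, 19 and 18 counts in WT bleo and 3, 7 and 11 in Pear1-/- bleo, and the groups did not overlap. It was lower in Pear1-/- bleo (log2 fold change -1.74, SE 0.44, adjusted p = 0.00323 by edgeR), and it fell with bleo in Pear1-/- (-1.52, SE 0.45, adjusted p = 0.00645). Tslp, the epithelial and stromal alarmin TSLP, fell with bleo in WT (-1.25, SE 0.19, adjusted p = 1.35e-05, or -1.33 without WT vehicle replicate 2) and in Pear1-/- (-0.68, SE 0.19, adjusted p = 0.00429). Of the 7 ligand genes 3 could be tested, and with bleo 2 fell in WT, Il33 and Tslp, and all 3 fell in Pear1-/-, where 36.5% and 33.1% of all tested genes fell.

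The summed markers of 2 cell types known to make IL-33 were lower in the bleo libraries too. The summed CPM of 6 adventitial fibroblast markers was 1126, 1494 and 1122 in WT vehicle replicates 1, 2 and 3, between 1476 and 1557 in Pear1-/- vehicle, between 513 and 522 in WT bleo and between 564 and 581 in Pear1-/- bleo. With bleo 4 of the 6 fell in WT and 5 in Pear1-/-. Without WT vehicle replicate 2 there were again 4 that fell in WT, and 1 rose. Over all tested genes 36.5% fell in WT, or 44.7% without that library, and 33.1% in Pear1-/-. Set against WT bleo, 1 of the 6 was higher and 3 were lower in Pear1-/- bleo, where 22.1% and 24.0% of all tested genes were. The sum was higher there with Ly6a, at means of 1737 normalised counts in WT bleo and 2497 in Pear1-/- bleo. Pi16 went the other way, at 859 and 485. None of the 6 was at or under 3 counts in every library. The sum over 6 alveolar type 2 epithelium markers was between 2606 and 3085 in the vehicle libraries, between 1142 and 1163 in WT bleo and between 338 and 350 in Pear1-/- bleo. With bleo 5 of these 6 fell and 1 rose in WT, and all 6 fell in Pear1-/-. All 6 were called lower in Pear1-/- bleo than in WT bleo, where 24.0% of all tested genes were lower. The part of either cell type in the Il33 values was not tested.

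Il1rl1 (ENSMUSG00000026069), which encodes ST2, lies on chr1:40429570-40465415, plus strand, with 6894 exonic bases. It had 122, 19.3 and 104 normalised counts in WT vehicle replicates 1, 2 and 3, and 26.5, 28.8 and 29.5 in Pear1-/- vehicle. It had 125, 131 and 119 in WT bleo and 134, 130 and 149 in Pear1-/- bleo. The 3 Pear1-/- vehicle libraries and WT vehicle replicate 2 were low, and the other 8 libraries lay between 104 and 149. Il1rl1 rose with bleo in Pear1-/- by 2.28 on the log2 scale, or 4.87-fold (SE 0.49, adjusted p = 0.00251 by edgeR). In WT it was not called changed, with or without replicate 2 (0.65, SE 0.43, adjusted p = 0.209 with it, and 0.22, SE 0.14, adjusted p = 0.153 without it). The bleo groups overlapped and differed by 0.12 (SE 0.40, adjusted p = 0.833). Il1rap, the partner chain of ST2, fell with bleo in WT (-0.81, SE 0.11, adjusted p = 3.92e-06, or -0.58 without WT vehicle replicate 2) and was higher in Pear1-/- bleo than in WT bleo (0.72, SE 0.11, adjusted p = 2.93e-05). The summed CPM of 9 markers of innate lymphoid and T helper cells, on which ST2 is known, was between 238 and 253 in all 6 vehicle libraries, between 200 and 204 in WT bleo and between 142 and 148 in Pear1-/- bleo. Of those 9 markers 1, Il13, was at or under 3 counts in every library, and 7 could be tested. With bleo 3 of the 7 rose and 2 fell in WT, and 1 rose and 6 fell in Pear1-/-. The shares of all tested genes were 31.4% and 36.5% in WT and 29.1% and 33.1% in Pear1-/-. The lower sum in WT bleo went with Rora, at a mean of 1080 normalised counts in WT vehicle and 453 in WT bleo. In Pear1-/- bleo 6 of the 7 were lower than in WT bleo, where 24.0% of all tested genes were. The sum over 8 mast cell and basophil markers, cells that also carry ST2, was 85.9, 65.5 and 86.8 CPM in WT vehicle replicates 1, 2 and 3, between 57.2 and 60.8 in Pear1-/- vehicle, between 49.4 and 53.7 in WT bleo and between 44.5 and 47.3 in Pear1-/- bleo. None of the 8 was at or under 3 counts in every library. The part of these cells in the Il1rl1 values was not tested.

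Il4ra (ENSMUSG00000030748), the chain shared by both receptors for IL-4, lies on chr7:125552120-125579474, plus strand, with 6002 exonic bases. It had 1121, 1572 and 1076 normalised counts in WT vehicle and 1507, 1420 and 1654 in Pear1-/- vehicle. It had 1815, 1772 and 1795 in WT bleo and 1874, 1889 and 1798 in Pear1-/- bleo. All 6 bleo libraries lay above all 6 vehicle libraries, and the 2 bleo groups overlapped. It rose with bleo in WT (0.53, SE 0.11, adjusted p = 0.000285 by edgeR) and in Pear1-/- (0.28, SE 0.11, adjusted p = 0.0262). Without WT vehicle replicate 2 the rise in WT was 0.78 (SE 0.065, adjusted p = 3.05e-16). The call in Pear1-/- was lost in 9 of the 12 fits that left out 1 library, with adjusted p between 0.0527 and 0.211, namely without any 1 library of either Pear1-/- group or of WT bleo. Pear1-/- bleo differed from WT bleo by 0.03 (SE 0.11, adjusted p = 0.824). Its exons share bases with Gm44876, and 7.49% of the 100-base stretches of its transcripts also occur in that gene, which was not used here.

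Il13ra1 (ENSMUSG00000017057), the second chain of the receptor that binds both cytokines, lies on chrX:36112110-36171259, plus strand, with 3712 exonic bases. It had 623, 705 and 678 normalised counts in WT vehicle and 838, 786 and 638 in Pear1-/- vehicle, with overlap between the groups. It had 1215, 1187 and 1154 in WT bleo and 1717, 1690 and 1668 in Pear1-/- bleo. The bleo groups stood apart from each other and from both vehicle groups. Il13ra1 rose with bleo in WT by 0.84 (SE 0.086, adjusted p = 7.43e-08 by edgeR) and in Pear1-/- by 1.17 (SE 0.085, adjusted p = 7.89e-10). It was 1.41-fold higher in Pear1-/- bleo than in WT bleo (log2 fold change 0.50, SE 0.083, adjusted p = 6.65e-05), and this call held in every alternative tried, with adjusted p of at most 0.00217. Without WT vehicle replicate 2 its rise in WT was 0.94 (SE 0.075, adjusted p = 1.28e-16).

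Il13ra2 (ENSMUSG00000031289), the decoy receptor for IL-13, lies on chrX:147383476-147429192, minus strand, with 2281 exonic bases. It had 9, 2 and 7 counts in WT vehicle replicates 1, 2 and 3. In the other 9 libraries it had at most 1 count. It was above the floor of 3 counts in 2 of 12 libraries and failed the filter, so it stands outside the counts of 6 genes. The alternatives that kept it called it lower in WT bleo than in WT vehicle, with adjusted p = 0.0185 by DESeq2 and 0.00844 by edgeR without the filter. No fold change is given, since the WT bleo counts lie under the floor, and no other comparison of Il13ra2 was called in these fits.

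**Figure D1:**
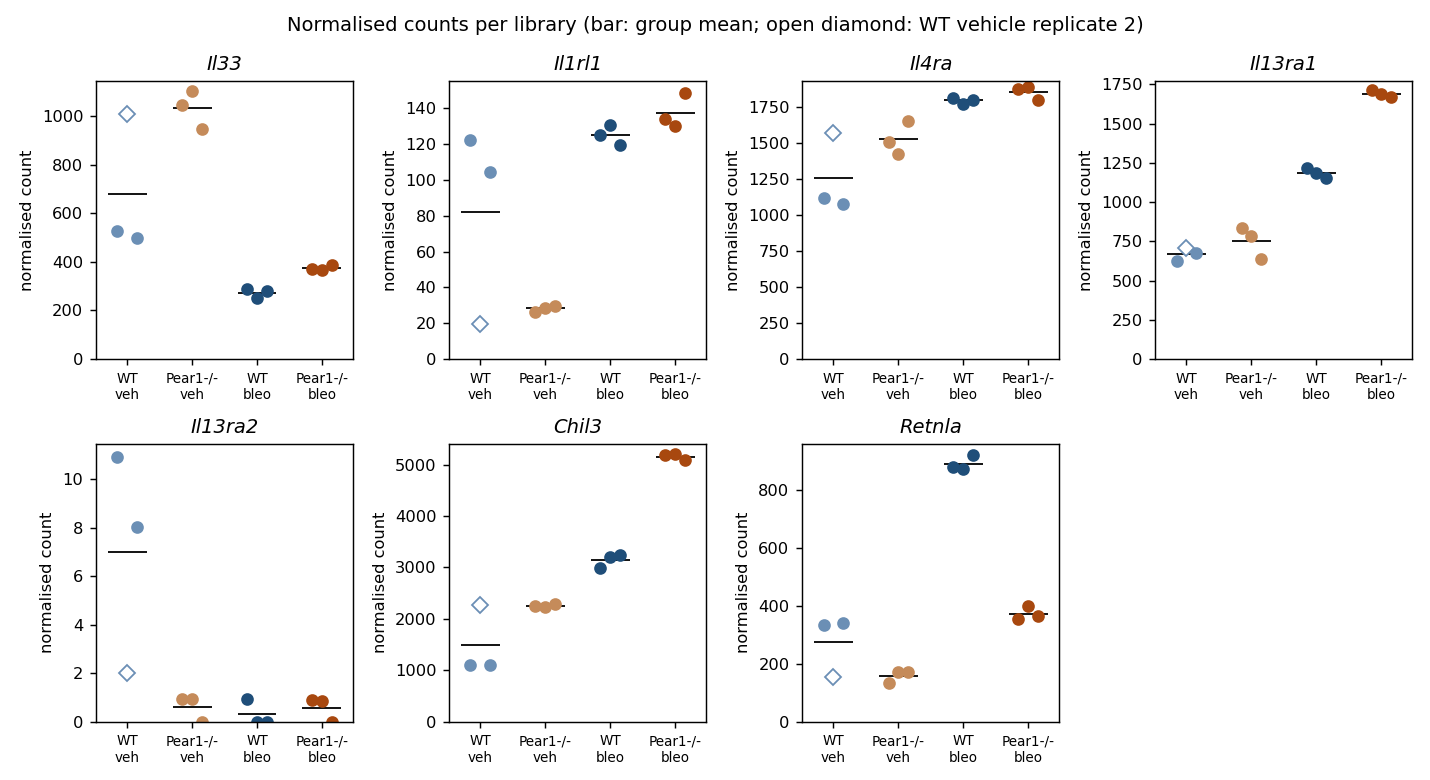
Normalised counts of the 7 genes (y axes, linear from 0, 1 panel per gene) in the 12 libraries by group (x axes), with 1 point per library, a bar at the group mean and an open diamond for WT vehicle replicate 2. The diamond lies with the Pear1-/- vehicle libraries for Il33, Il1rl1, Il4ra, Chil3 and Retnla, and Retnla is highest in WT bleo at 872 to 919.

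Chil3 (ENSMUSG00000040809), which encodes the secreted chitinase-like lectin Ym1, lies on chr3:106147554-106167564, minus strand, with 1632 exonic bases, and its promoter is printed above. It had 1112, 2264 and 1102 normalised counts in WT vehicle and 2247, 2227 and 2284 in Pear1-/- vehicle. It had 2988, 3209 and 3245 in WT bleo and 5178, 5201 and 5083 in Pear1-/- bleo. The 6 bleo libraries lay above all vehicle libraries, and the bleo groups did not overlap. Chil3 rose with bleo in WT by 1.09 (SE 0.24, adjusted p = 0.00325 by edgeR) and in Pear1-/- by 1.20 (SE 0.24, adjusted p = 0.00208). The rise in WT was larger without WT vehicle replicate 2, at 1.58 (SE 0.06, adjusted p = 2.32e-31). It was 1.62-fold higher in Pear1-/- bleo than in WT bleo (log2 fold change 0.70, SE 0.24, adjusted p = 0.0395). This call was lost in 9 of the 12 fits that left out 1 library (adjusted p between 0.0862 and 0.152), namely without any 1 bleo library or any 1 Pear1-/- vehicle library, and without the filter on low counts (adjusted p = 0.148). With only the bleo groups fitted it was 0.71 (SE 0.028, adjusted p = 1.32e-42), and without WT vehicle replicate 2 it was 0.69 (SE 0.047, adjusted p = 3.63e-19). Of the 100-base stretches of its transcripts 4.93% also occur in Chil4 or Gm6522, whose counts in the bleo libraries were at most 1 and at most 9.

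Retnla (ENSMUSG00000061100), which encodes the secreted protein RELM-alpha, lies on chr16:48842551-48844461, plus strand, with 599 exonic bases, and its promoter is printed above too. It had 333, 154 and 339 normalised counts in WT vehicle and 133, 170 and 171 in Pear1-/- vehicle. It had 877, 872 and 919 in WT bleo and 353, 398 and 364 in Pear1-/- bleo. WT bleo was the highest group by far, and the lowest Pear1-/- bleo library lay above the highest vehicle library. Retnla rose with bleo in WT by 1.71 (SE 0.23, adjusted p = 9.95e-05 by edgeR) and in Pear1-/- by 1.24 (SE 0.25, adjusted p = 0.00162). Without WT vehicle replicate 2 the rise in WT was 1.48 (SE 0.085, adjusted p = 9.07e-23). It was 2.41-fold lower in Pear1-/- bleo than in WT bleo (log2 fold change -1.27, SE 0.22, adjusted p = 0.00108), and this call held in every alternative tried, with adjusted p of at most 0.00338. Its difference from WT bleo was thus opposite in sign to that of Chil3.

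**Figure D2:**
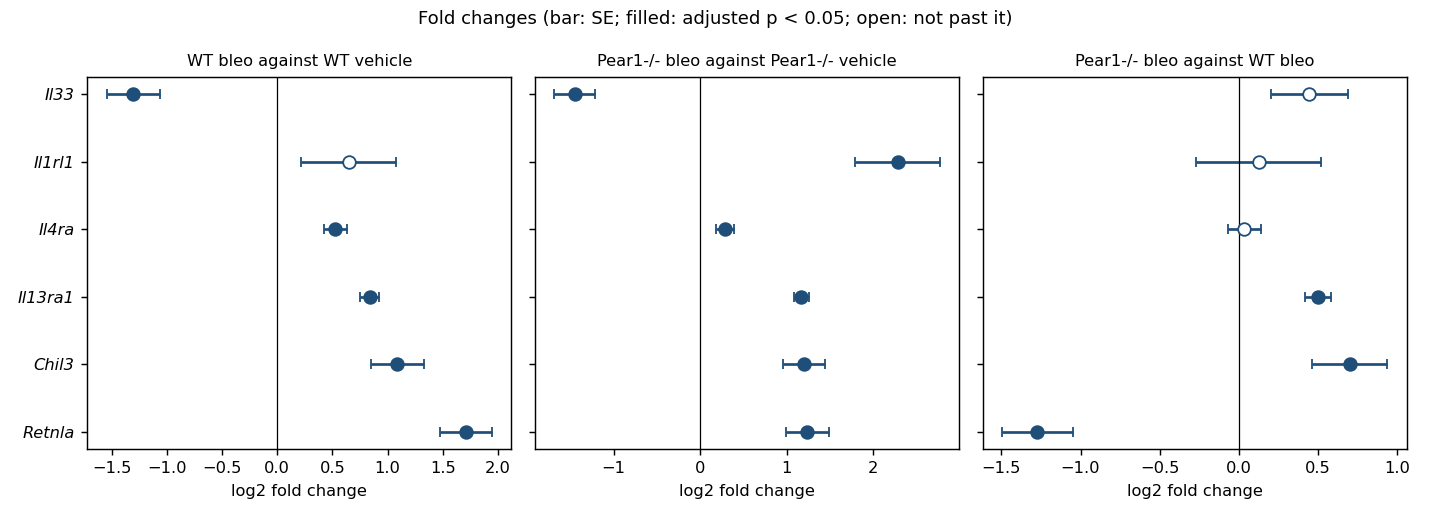
Log2 fold changes (x axes) of the 6 genes that passed the filter (y axis) in 3 comparisons, with bars for the SE, filled circles for genes called changed and open circles for those not called. Il33 lies left of 0 in both bleo comparisons, and in Pear1-/- bleo against WT bleo Chil3 lies at 0.70 and Retnla at -1.27.

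Counted together, 5 of 6 tested genes changed with bleo in WT, 4 higher and 1 lower. Over all tested genes 67.9% changed in that comparison, 31.4% higher and 36.5% lower. Leaving out WT vehicle replicate 2 gave the same counts of 4 and 1, where 76.4% of 20405 tested genes changed. In Pear1-/- all 6 changed, 5 higher and 1 lower, where 62.2% of all tested genes changed, 29.1% higher and 33.1% lower. Between the bleo groups 3 of 6 differed, 2 higher and 1 lower in Pear1-/-, where 46.1% of all tested genes changed, 22.1% higher and 24.0% lower. With that library left out 4 of 6 differed, where 49.2% of all tested genes did. The median log2 fold change over the genes was 0.74 in WT, 1.18 in Pear1-/- and 0.28 between the bleo groups, against -0.07, -0.05 and -0.01 over all tested genes. In WT it was 0.86 without replicate 2, against -0.21. The first and second of these comparisons share no libraries, and the third shares the bleo libraries of both.

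Per kilobase of exon, Chil3 was the most abundant of the genes in every group. In WT vehicle its level was 105.9 ± 38.2 CPM per kilobase, ahead of Retnla at 55.5 ± 24.0, and their ranges did not overlap. Il33 at 27.3 ± 9.20, Il4ra at 24.5 ± 3.31 and Il13ra1 at 21.3 ± 1.19 came next and overlapped one another, and the lowest Retnla library lay within the Il33 range. Il1rl1 was at 1.45 ± 1.01 CPM per kilobase. In WT vehicle replicates 1 and 3 alone Chil3 had a mean of 83.8 and Retnla of 69.4, ahead of Il4ra at 22.6, Il33 at 22.0 and Il13ra1 at 21.7. In Pear1-/- vehicle Il33 was second at 38.3 ± 3.37 CPM per kilobase, above Retnla at 28.2 ± 3.68. WT bleo had Retnla second at 167 ± 5.03 CPM per kilobase, then Il13ra1 at 35.9 ± 0.896 and Il4ra at 33.6 ± 0.403. In Pear1-/- bleo the order was Chil3 at 353 ± 5.19, Retnla at 69.3 ± 4.16, then Il13ra1 at 50.9 ± 0.993, Il4ra at 34.5 ± 0.986, Il33 at 14.6 ± 0.400 and Il1rl1 at 2.23 ± 0.157.

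The bleo effect was also compared between genotypes as a genotype by bleo interaction. Of 6 genes 1 was called, Il13ra1, where 37.1% of all tested genes were called. Its rise with bleo was larger in Pear1-/- than in WT by 0.33 (SE 0.12, adjusted p = 0.036 by edgeR). Without WT vehicle replicate 2 this call was lost (0.21, SE 0.097, adjusted p = 0.0775) and 4 others passed, where 46.4% of all tested genes were called. They were Il1rl1 (2.05, SE 0.22, adjusted p = 1.07e-11), Il33 (-0.64, SE 0.11, adjusted p = 1.7e-06), Il4ra (-0.52, SE 0.084, adjusted p = 6.77e-07) and Chil3 (-0.40, SE 0.075, adjusted p = 1.07e-05). In the fit reported, with all 12 libraries, none of these was called. Il1rl1 had an interaction of 1.63 (SE 0.66, adjusted p = 0.0826), Il33 of -0.15 (SE 0.33, adjusted p = 0.765), Il4ra of -0.24 (SE 0.15, adjusted p = 0.221) and Chil3 of 0.11 (SE 0.34, adjusted p = 0.833). The sign of the Chil3 interaction thus turned with this 1 library. With all 12 libraries DESeq2 did call the Il1rl1 interaction, as did edgeR with dispersions not estimated robustly (adjusted p = 0.0272 by the latter).

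Between the vehicle groups none of 6 genes was called changed by edgeR, where 7.24% of all tested genes were called. At an unadjusted p under 0.05 there were 5 of the 6. DESeq2 called Il1rl1 and Retnla, and limma called Il33 and Chil3, so these 2 methods shared no call. The log2 fold changes were 0.59 for Il33 (SE 0.23, adjusted p = 0.115), -1.51 for Il1rl1 (SE 0.53, adjusted p = 0.0935), 0.28 for Il4ra (SE 0.11, adjusted p = 0.094), 0.17 for Il13ra1 (SE 0.086, adjusted p = 0.187), 0.59 for Chil3 (SE 0.24, adjusted p = 0.136) and -0.80 for Retnla (SE 0.26, adjusted p = 0.0776). WT vehicle replicate 2 was named because it lay near Pear1-/- vehicle, so leaving it out widens these differences by construction. The fit then keeps WT vehicle replicates 1 and 3 only. Without replicate 2 all 6 were called, in the same directions, where 55.3% of all tested genes were called. Il13ra1 was then 0.28 (SE 0.077, adjusted p = 0.00165), Il4ra 0.54 (SE 0.065, adjusted p = 6.35e-10), Il33 1.08 (SE 0.076, adjusted p = 4.97e-18), Chil3 1.09 (SE 0.06, adjusted p = 7.98e-23), Il1rl1 -1.93 (SE 0.18, adjusted p = 6.64e-13) and Retnla -1.03 (SE 0.10, adjusted p = 4.44e-12). Neutrophil markers moved with this split of the libraries. Their sum over 6 genes was 548, 1657 and 548 CPM in WT vehicle replicates 1, 2 and 3 and between 1551 and 1903 in Pear1-/- vehicle, none of the 6 at or under 3 counts in every library. Their part in the result was not tested.

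**Figure D3:**
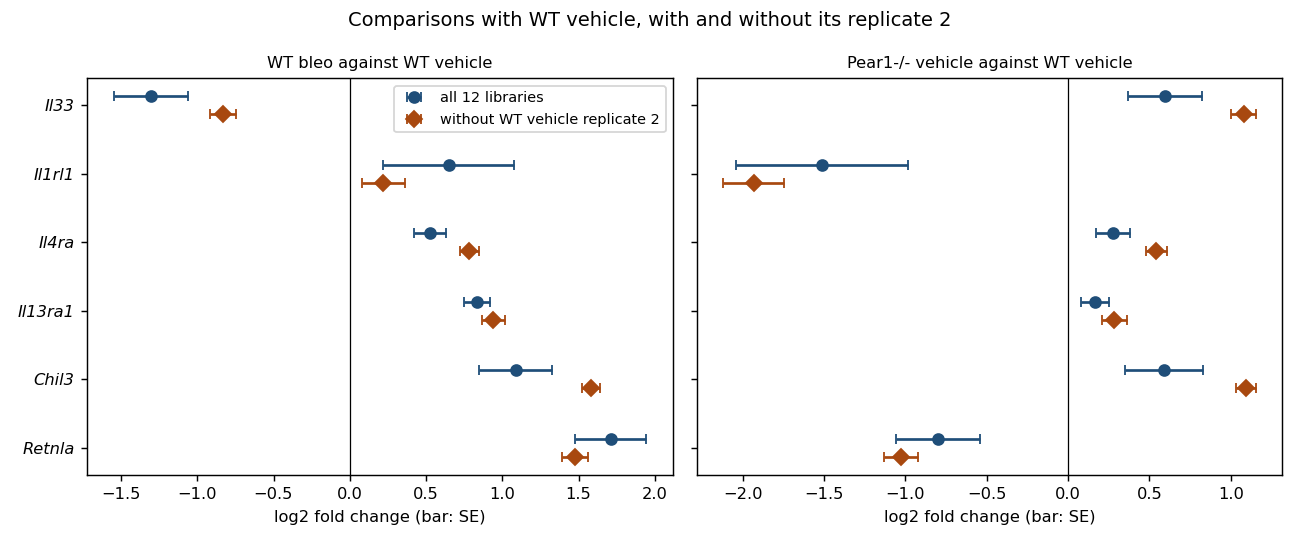
Log2 fold changes (x axes, bars for the SE) of 6 genes (y axis) in the 2 comparisons that use WT vehicle, with all 12 libraries (circles) and without WT vehicle replicate 2 (diamonds). Without that library every gene shown lies farther from 0 between the vehicle groups, which follows from leaving out a library that lay near Pear1-/- vehicle. Il33 moves from -1.30 to -0.83 in WT bleo against WT vehicle.

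The alternative activation genes were then set beside the cell type markers. All 12 leukocyte and macrophage markers rose with bleo in WT, also without WT vehicle replicate 2, and 11 of 12 in Pear1-/-, and all 12 were lower in Pear1-/- bleo than in WT bleo. Over all tested genes 31.4% rose in WT, or 31.7% without that library, and 29.1% in Pear1-/-. Between the bleo groups 22.1% were higher and 24.0% lower in Pear1-/-. The 9 fibroblast markers summed to between 9020 and 9083 CPM in WT bleo and between 24478 and 25146 in Pear1-/- bleo, and 4 of the 9 were higher and 1 lower in Pear1-/- bleo. Most of the sum in these 6 libraries came from Col1a1 and Col1a2, and the other 7 markers summed to between 1649 and 1664 CPM in WT bleo and between 1874 and 1891 in Pear1-/- bleo. The 8 alveolar macrophage markers, cells in which Chil3 is abundant, summed to between 594 and 622 CPM in WT bleo and between 232 and 239 in Pear1-/- bleo. Of the 8, 5 were called lower in Pear1-/- bleo and 3 were not called. Most of this sum came from Itgax, with means of 3439 and 1189 normalised counts in WT bleo and Pear1-/- bleo, and Ear2, with 1426 and 645. Per 1000 CPM of the macrophage markers, Retnla was at 4.99 to 5.26 CPM in WT bleo and at 5.03 to 5.50 in Pear1-/- bleo, and the groups overlapped. It was at 14.6, 5.80 and 15.3 in WT vehicle replicates 1, 2 and 3 and at 4.95 to 6.47 in Pear1-/- vehicle. Retnla on this scale was thus lower in WT bleo than in each WT vehicle library. On the same scale Chil3 was at 17.1 to 18.6 in WT bleo and higher in Pear1-/- bleo, at 71.8 to 73.8. It was at 48.8, 85.1 and 49.9 in WT vehicle replicates 1, 2 and 3 and at 83.2 to 84.9 in Pear1-/- vehicle. Chil3 on this scale was thus lower in WT bleo than in every vehicle library. On that scale Il13ra1 had a mean of 6.79 in WT bleo, 23.8 in Pear1-/- bleo and 28.2 in each vehicle group. Per 1000 CPM of the 9 fibroblast markers Chil3 was lower in Pear1-/- bleo, at 22.6 to 23.8 against 36.9 to 40.4 in WT bleo, but this rests on the 2 collagen genes. Per 1000 CPM of the other 7 markers Chil3 was higher in Pear1-/- bleo, at 302 to 308 against 202 to 221. Il13ra1 likewise had means of 7.60 in Pear1-/- bleo and 14.7 in WT bleo over all 9 markers, but 100.3 and 80.4 over the other 7. Retnla was lower in Pear1-/- bleo over the other 7 too, with means of 22.0 and 60.3. Which cells made these transcripts was not tested.

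**Figure D4:**
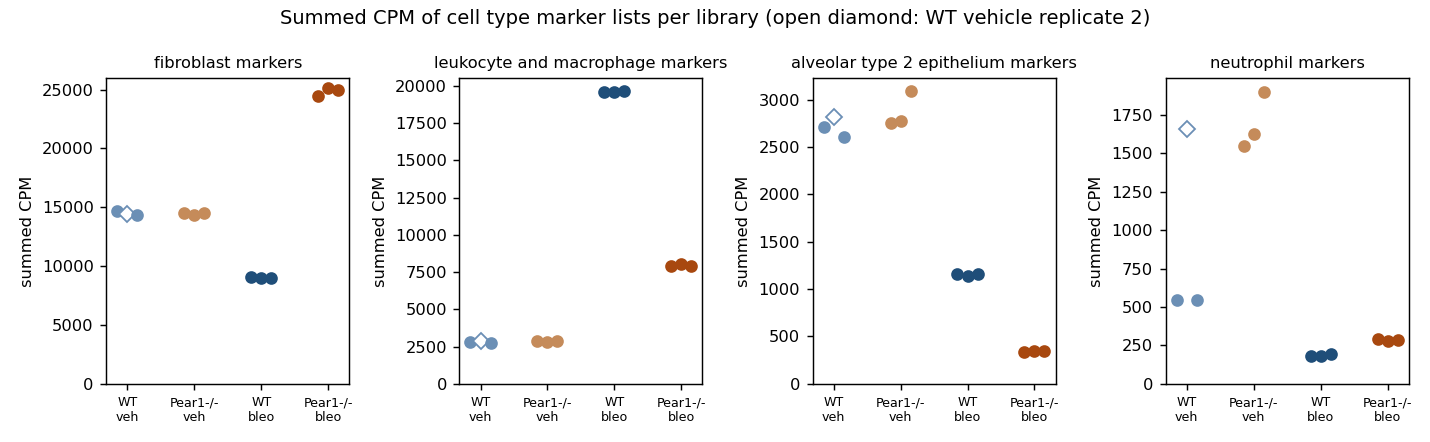
Summed CPM (y axes, linear from 0) of 4 cell type marker lists in the 12 libraries by group (x axes), with an open diamond for WT vehicle replicate 2. Leukocyte and macrophage markers are highest in WT bleo at 19572 to 19663, fibroblast markers are highest in Pear1-/- bleo at 24478 to 25146, most of it Col1a1 and Col1a2, and the neutrophil sum of the diamond, 1657, lies with Pear1-/- vehicle.

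The wider alternative activation list used here has 19 genes, all of which passed the filter. In Pear1-/- bleo 2 were higher than in WT bleo, namely Chil3 and the STAT-induced gene Socs2, while 11 were lower and 6 did not pass the test. Over all tested genes 22.1% were higher and 24.0% lower. The median of the list was -0.50 against -0.01 over all tested genes. Those that were lower included Alox15, a lipoxygenase of alternatively activated macrophages (log2 fold change -3.10, SE 0.40, adjusted p = 3.87e-06 by edgeR), the mannose receptor Mrc1 (-1.37, SE 0.071, adjusted p = 1.67e-11) and the macrophage lectin Mgl2 (-1.31, SE 0.069, adjusted p = 1.85e-11). Retnla was on their side at -1.27. With bleo in WT 12 of the 19 genes rose and 3 fell, and without WT vehicle replicate 2 the counts were again 12 and 3. Mrc1 rose by 3.30 (SE 0.079, adjusted p = 3.64e-17, or 3.44 without that library) and the lectin Clec10a by 3.58 (SE 0.18, adjusted p = 1.4e-12, or 3.85). In Pear1-/- 11 of the 19 rose and 5 fell. Over all tested genes 31.4% rose and 36.5% fell in WT, or 31.7% and 44.7% without WT vehicle replicate 2. In Pear1-/- the shares were 29.1% and 33.1%. The eosinophil-attracting chemokine Ccl24, which had 47, 1 and 41 counts in WT vehicle and at most 1 in Pear1-/- vehicle, had 28 to 46 in the bleo libraries.

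**Figure D5:**
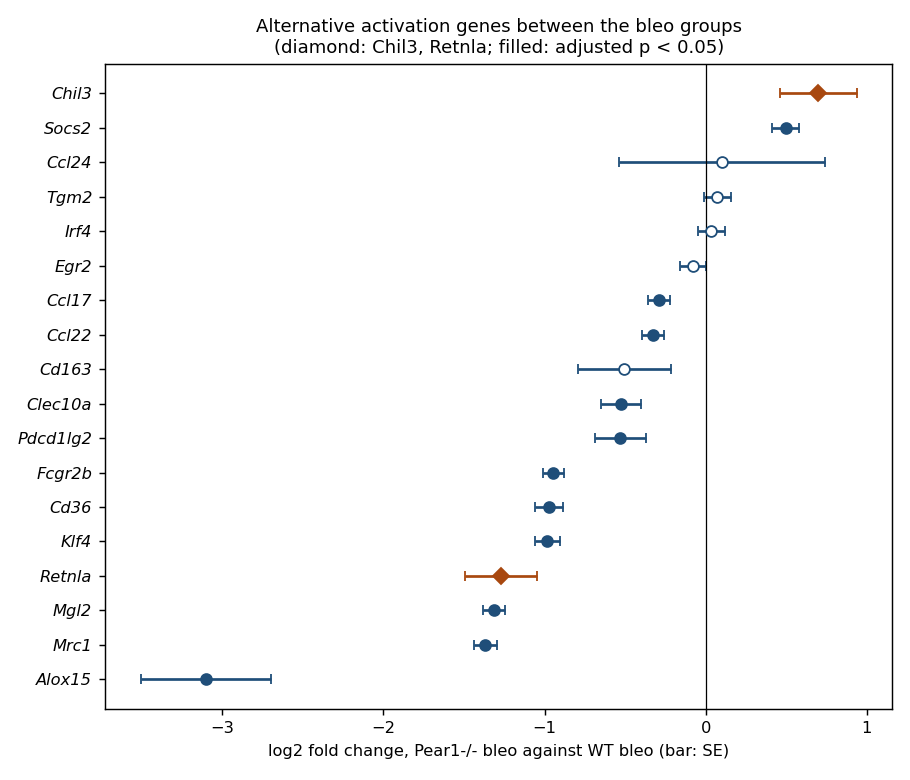
Log2 fold change between Pear1-/- bleo and WT bleo (x axis, bars for the SE) of 18 of the 19 alternative activation genes (y axis), with diamonds for Chil3 and Retnla, circles for the others and filled symbols for genes called changed. Chil4 is left out because it had no count in WT bleo. Chil3 at 0.70 lies right of 0 while Retnla at -1.27 lies with Mgl2 and Mrc1.

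Of the relatives of Chil3 and Retnla, Chil4 had 54, 18 and 98 counts in WT vehicle, 22, 17 and 14 in Pear1-/- vehicle and at most 1 in any bleo library. It fell with bleo in both genotypes (adjusted p = 8.67e-06 in WT and 0.00113 in Pear1-/- by edgeR), opposite to Chil3, and the call in WT held without WT vehicle replicate 2 (adjusted p = 4.76e-19). Retnlg, a neutrophil gene, fell with bleo in WT (log2 fold change -2.39, SE 0.49, adjusted p = 0.0022), opposite to Retnla, and without WT vehicle replicate 2 it fell by 1.52 (SE 0.13, adjusted p = 2.99e-15). The 6 tested genes of this list include Chil3 and Retnla, which were the 2 that rose in each genotype, and the other 4 fell. The shares of all tested genes that rose and fell were 31.4% and 36.5% in WT and 29.1% and 33.1% in Pear1-/-.

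Of 10 tested type 2 receptor genes, 6 rose and 2 fell with bleo in WT, with the same counts without WT vehicle replicate 2, and 5 rose and 4 fell in Pear1-/-. Over all tested genes 31.4% rose and 36.5% fell in WT, or 31.7% and 44.7% without that library. In Pear1-/- 29.1% rose and 33.1% fell. Crlf2, the TSLP receptor chain, rose by 1.78 in WT (SE 0.13, adjusted p = 1.35e-09 by edgeR, or 2.08 without that library) and by 0.75 in Pear1-/- (SE 0.13, adjusted p = 6.53e-05), and its interaction of -1.03 passed the test (SE 0.18, adjusted p = 0.000286, or -1.34 without that library). Set against WT bleo, 2 receptors were higher in Pear1-/-, Il13ra1 and Il1rap, and 4 were lower, where 22.1% and 24.0% of all tested genes were. The lower ones included Il5ra (-1.65, SE 0.30, adjusted p = 0.000155) and Il7r (-0.77, SE 0.093, adjusted p = 1.34e-06).

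Of 16 signal carriers downstream of these receptors, 8 rose and 2 fell with bleo in WT, beside 31.4% and 36.5% of all tested genes. Without WT vehicle replicate 2 the counts were 11 and 2, beside 31.7% and 44.7%. In Pear1-/- 3 rose and 5 fell, beside 29.1% and 33.1%. Against WT bleo none was called higher and 5 of 16 were lower in Pear1-/- bleo, a share near the 24.0% of all tested genes. Among them were Irak1, a kinase of the IL-33 receptor (-1.07, SE 0.12, adjusted p = 5.07e-07 by edgeR), and Tyk2 (-0.35, SE 0.093, adjusted p = 0.00465). Of 5 chemokine and matrix genes that respond to IL-4 and IL-13, 3 rose and 1 fell with bleo in WT. These counts held without WT vehicle replicate 2. The shares over all tested genes were again 31.4% and 36.5% in WT, or 31.7% and 44.7% without that library. In Pear1-/- 4 rose and 1 fell, again beside 29.1% and 33.1%. Postn, the matrix protein periostin, rose by 1.41 in WT (SE 0.067, adjusted p = 8.42e-13, or 1.501 without WT vehicle replicate 2) and by 2.61 in Pear1-/- (SE 0.069, adjusted p = 2.83e-16), and was 2.30-fold higher in Pear1-/- bleo than in WT bleo. It was the 1 gene of the list that was higher there, while Ccl17 (-0.29, SE 0.068, adjusted p = 0.00162) and Ccl22 (-0.33, SE 0.069, adjusted p = 0.000699) were lower and 2 were not called. Of all tested genes 22.1% were higher there and 24.0% lower. The eotaxin gene Ccl11 fell in WT (log2 fold change -2.74, SE 0.36, adjusted p = 0.000142, or -2.12 without that library), and Ccl17 rose by 3.14 (SE 0.08, adjusted p = 9.06e-17), or by 3.19.

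The genes most like each member over the 12 libraries were found by Pearson's r of log2 CPM among the 10702 genes whose log2 CPM averaged 3 or more. Libraries of a group share their condition and cell makeup, so these values are a description. For Il33 they were Lum, Hspa5 and Fibin (r = 0.993, 0.992 and 0.992), of which Lum is a fibroblast marker. For Retnla they were Cdk18, Ighm and Hpgds, each at r = 0.987, and for Chil3 Kars, Hdac1 and Snapin (r = 0.990, 0.986 and 0.984). For Il1rl1 they were Hs1bp3, Myof and Sergef (r = 0.984, 0.976 and 0.969). For Il4ra they were Ccr6, Rpl36al and Rplp0 (r = 0.988, 0.987 and 0.985), and for Il13ra1 Cpsf6, Tmem167 and Rbm3 (r = 0.995, 0.993 and 0.992). Among the members themselves r was 0.93 for Il4ra and Chil3, 0.91 for Il13ra1 and Chil3, and 0.30 for Chil3 and Retnla, while Il33 and Retnla stood at -0.95.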

How the data were processed

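RNA of sorted Pdgfra+ (Cd140a+) lung cells was made into full-length cDNA (SMART-Seq v4) and aligned by the authors to GRCm38 with HISAT2. The counting program is not given in the sources used here. The authors deposited whole read counts per gene, without normalization, and a second table whose deposited signal values equal those counts divided by DESeq2 size factors. Totals per library were between 6702948 and 10447101. Groups came from the labels. Counts were tested with edgeR 4.0.16 (TMM, filterByExpr by group, robust dispersion and quasi-likelihood estimates, 1 mean per group, all 12 libraries). Robust estimation was chosen after the data were seen, and the estimate without it is given as an alternative. DESeq2 1.42.0, limma 3.58.1 on log2(normalised count + 1), other filters and scaling, fits of only the groups compared, a replicate block and leaving out each library were the other alternatives. Refits without WT vehicle replicate 2 of comparisons it is not part of, and of the gene lists, and fibroblast sums without Col1a1 and Col1a2, were added after the data were seen. The study's methods name limma, and edgeR was used here because raw counts were deposited. Members and gene lists were chosen with earlier results of these data known. Of the 8 genes the rule named, 1 is not reported here. Besides the members, up to 3 genes per list and comparison were named, those with the largest change among called genes averaging a log2 CPM of 1 or more, and Socs2, Ccl24, Gm44876 and Gm6522 were named after their values were seen. On simulated counts edgeR's test was checked and recovered known changes of 2-fold and more. Those counts had 1 dispersion for all genes and no library that stood apart, so they do not check a fit that holds such a library. Locations and exonic lengths are from GENCODE M21.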

Additional observations from a re-analysis of the deposited data

Results flagged for a closer look

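The bleo effect on Il13ra1 differed between genotypes by a test of the difference itself. The interaction log2 fold change was 0.332 (SE 0.12, adjusted p = 0.036 by edgeR), and the rise with bleo was 1.17 in Pear1-/- and 0.84 in WT. Leaving out 1 library at a time gave values between 0.18 and 0.38, and the call was lost in 11 of those 12 fits, the fit without WT vehicle replicate 2 among them.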

How the results depend on the processing

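Of the fold changes of the genes recomputed under the alternatives, 413 kept their direction and their side of the threshold, 25 lost the call, 21 gained it and 3 turned around. The 3 that turned were interactions in fits that left out 1 library. Il33 lay between -0.64 and 0.0274, at 0.0013 without WT vehicle replicate 1 and 0.0274 without replicate 3, and Chil3 lay between -0.40 and 0.29, the lowest without WT vehicle replicate 2. For the vehicle groups the number of genes called, 0 of 6, became 2 with DESeq2, 2 with limma, 2 without the low-count filter and 1 with dispersions not estimated robustly, and lay between 0 and 6 when 1 library was left out. DESeq2 called Il1rl1 and Retnla, limma Il33 and Chil3, and the fit without the filter Il4ra and Retnla. For the interaction the number called was 1 and became 2, Il1rl1 and Il13ra1, with DESeq2 and also with dispersions not estimated robustly. It lay between 0 and 4 when 1 library was left out. Without the filter it was again 1, but Retnla in place of Il13ra1. The 6 and the 4 came from leaving out WT vehicle replicate 2, and the cause was not tested. Over all genes the vehicle comparison called 1261, but 0 with only the groups compared, 784 without robust estimation and 5676 without the filter. It called 11281 without WT vehicle replicate 2 and 0 without any other vehicle library. The WT bleo comparison called 11834 genes, and 19714 without the filter. With a replicate block the genes called were 5 of 6 in WT, 6 of 6 in Pear1-/-, 3 of 6 between the bleo groups, 0 of 6 in vehicle and 1 of 6 for the interaction, and the block changed no call. Same-numbered libraries correlated between -0.15 and 0.10 over 18 pairs, with 1 pair above 0.1, and the numbers were not taken to pair them. Il13ra2 failed the filter of the fit reported, but DESeq2 and the fit without the filter tested it, and with it called 6 of 7 genes in WT bleo against WT vehicle.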
